A study of Mus musculus with 9 samples.

Results

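The inflammatory and interferon-induced chemokines examined here were 9 genes taken by name, namely Ccl2, Ccl5, Ccl7, Ccl20, Cxcl1, Cxcl2, Cxcl5, Cxcl10 and Cxcl12. They stand among 20076 mouse genes that had a ratio in at least 1 of the authors' 2 deposited tables. All 9 had a ratio in the NICD1 table and 7 in the JICD1 table, where Ccl20 and Cxcl2 had none. The cells were astrocytes of mouse brain with the genotype Ink4a-/-, that is, without the cell cycle inhibitor Ink4a, and all groups carried this deletion. One group had received the plasmid pcDNA HA-JICD1 puro, which encodes an HA-tagged intracellular fragment of the Notch ligand Jagged1. A second had received pcDNA NICD puro, for the intracellular fragment of the receptor Notch1, which enters the nucleus and switches on genes with the DNA-binding protein RBPJ. The control group had received the empty vector pcDNA puro. Each of the 3 groups had 3 RNA-seq libraries by the labels, 9 in all. Promoter of the constructs, selection, time after transfection and whether the 3 libraries came from separate cultures are not stated in the labels.

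Chemokines are small secreted proteins that direct the movement of cells by binding receptors of the G protein-coupled class. They are named by the spacing of their first cysteines, as CC, CXC or CX3C. In inflamed tissue most are switched on by the transcription factor NF-kB, downstream of interleukin 1 and tumour necrosis factor, and several also by interferons through STAT and IRF factors. Astrocytes are a known source of Ccl2, Cxcl1, Cxcl10 and Cxcl12 in the brain, where these attract monocytes, neutrophils and T cells or hold progenitor cells in place.

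The start regions of 4 members show the DNA on which these factors are known to act, and the values of these genes are given below. The sequences are the RefSeq promoters of GRCm38.p6, with 250 bases before and 50 after the start, 5′ to 3′ on the gene's strand, matched by symbol. Capitals mark matches to the NF-kB consensus motif or to the interferon-stimulated response element, written GAAANNGAAA. Both strands were searched for these and for the RBPJ motif GTGGGAA, and no match of one motif overlapped a match of another.
Cxcl10, chr5:92348840-92349139, - strand: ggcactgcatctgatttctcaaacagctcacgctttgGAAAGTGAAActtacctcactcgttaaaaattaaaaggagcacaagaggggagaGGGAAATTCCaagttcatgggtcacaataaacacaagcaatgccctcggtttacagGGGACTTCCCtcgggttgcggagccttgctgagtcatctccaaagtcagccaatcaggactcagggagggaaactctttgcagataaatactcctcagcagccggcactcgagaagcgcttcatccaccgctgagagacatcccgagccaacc
Cxcl1, chr5:90890995-90891294, + strand: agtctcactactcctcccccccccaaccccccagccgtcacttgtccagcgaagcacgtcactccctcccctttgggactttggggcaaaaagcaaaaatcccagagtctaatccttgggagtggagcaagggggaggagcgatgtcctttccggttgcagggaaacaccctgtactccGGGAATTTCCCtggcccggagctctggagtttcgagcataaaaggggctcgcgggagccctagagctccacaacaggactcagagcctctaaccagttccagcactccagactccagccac
Cxcl2, chr5:90903649-90903948, + strand: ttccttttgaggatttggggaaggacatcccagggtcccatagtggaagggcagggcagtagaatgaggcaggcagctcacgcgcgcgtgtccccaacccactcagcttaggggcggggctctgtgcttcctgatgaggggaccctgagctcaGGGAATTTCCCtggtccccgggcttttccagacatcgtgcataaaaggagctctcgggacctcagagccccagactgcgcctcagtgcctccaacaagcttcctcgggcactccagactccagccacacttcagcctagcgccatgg
Cxcl12, chr6:117168285-117168584, + strand: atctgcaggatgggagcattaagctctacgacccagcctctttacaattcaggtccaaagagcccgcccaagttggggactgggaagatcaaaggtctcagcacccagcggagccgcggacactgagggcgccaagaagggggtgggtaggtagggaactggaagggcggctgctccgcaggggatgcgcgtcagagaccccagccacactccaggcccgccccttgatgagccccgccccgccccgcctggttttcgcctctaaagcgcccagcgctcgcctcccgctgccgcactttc

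In Cxcl10 the capitals mark the interferon element GAAAGTGAAA at -213 to -204 from the start and the NF-kB matches GGGAAATTCC at -159 to -150 and GGGACTTCCC at -103 to -94. Cxcl1 and Cxcl2, which lie next to each other on chromosome 5, held the same NF-kB match, GGGAATTTCC, at -71 to -62 and at -97 to -88. It reads as a match on both strands, 1 base apart. Cxcl12, on chromosome 6, held none of the 3 motifs in this window. A promoter was matched for 5 of the 9 members: these 4 and Ccl20, which held the NF-kB match GGAAAACCCC at -80 to -71, on the reverse strand. Of the 5, 4 held the NF-kB motif, 1 the interferon element and 0 the RBPJ motif. Over all 32851 RefSeq promoters of this length the shares were 4.51%, 3.44% and 6.38%. A match is a description of letters and not a site shown to be bound. Ccl2, Ccl5, Ccl7 and Cxcl5 are named without a sequence.

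The values are the authors' own. Each table gives 1 log2 ratio per gene, of the JICD1 or the NICD1 group over control, and a score from 0 to 1 headed Probability. With 1 value per comparison, no ratio here has a replicate error, a standard error or a p-value, library depth is unknown, and higher and lower describe a direction without a test. A gene with a score of 0.8 or more is called scored, and 2.81% of 18971 genes in the JICD1 table and 2.61% of 19287 genes in the NICD1 table were scored. The tables hold no expression level. Where a ratio lies on the lowest edge of the scores, 1 of the groups was inferred to sit at a common floor that stands for no reads, and no fold is given. In bulk RNA, fewer cells of a type and less RNA per cell cannot be told apart. Jag1, whose intracellular part the JICD1 construct encodes, had a log2 ratio of -1.39 (score 0.759) for JICD1 in the authors' deposited table. This goes against the label, and whether reads of the construct count toward Jag1 is unknown, so the group is called the libraries labelled JICD1. For NICD1 the authors' deposited table put Jag1 at 1.36 (score 0.819). Notch1, whose intracellular part the NICD construct encodes, stood above 0 in both of the authors' deposited tables, at 1.33 (score 0.735) for JICD1 and 1.77 (score 0.815) for NICD1. Cdkn2a, the gene of the Ink4a locus, had a ratio only for NICD1, at 7.59 in the authors' deposited table with its control inferred at the floor, and whether those reads lie in the deleted part is unknown. Of 10 astrocyte markers 9 had a ratio in both tables and Aqp4 had none. For Slc1a2, a glutamate transporter, the control was inferred to sit at the floor. In the authors' deposited table for JICD1, scores of Gja1 (0.737), Sox9 (0.757), Clu (0.930) and Aldh1l1 (0.639) lay well above the lowest edge. Aldoc (0.413) and Gfap (0.242) lay above it by less, and Slc1a3 (0.141) and S100b (0.136) did not lie above it. Without levels the cell type could not be checked further.

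The members lay on both sides of 0 in the libraries labelled JICD1 and mostly above 0 in the NICD1 libraries. In the authors' deposited table for JICD1, 3 of 7 members were scored lower, which were Cxcl12, Ccl7 and Ccl2, against 1.74% of all genes. None was scored higher, against 1.07% of all genes. In all, 5 of the 7 ratios lay below 0, as did 45.5% of all genes, and the members' median was -0.86, where that of all genes was 0.05. In the authors' deposited table for NICD1, 1 of 9 members, Cxcl10, was scored higher and 1, Ccl7, was scored lower, against 1.64% and 0.97% of all genes. There 7 of the 9 ratios lay above 0, as did 48.5% of all genes, with a median of 1.93 where that of all genes was -0.02. Without Cxcl2 and Ccl20, whose control was inferred at the floor, the NICD1 median was 0.74. A log2 ratio of 1 or more was reached by 2 of 7 members in the libraries labelled JICD1 and 5 of 9 in the NICD1 libraries, against 14.5% and 16.6% of all genes. Without Cxcl2 and Ccl20 the NICD1 count was 3. One of -1 or less was seen for 3 of 7 and 1 of 9, against 14.4% and 12.1%.

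**Figure D1:**
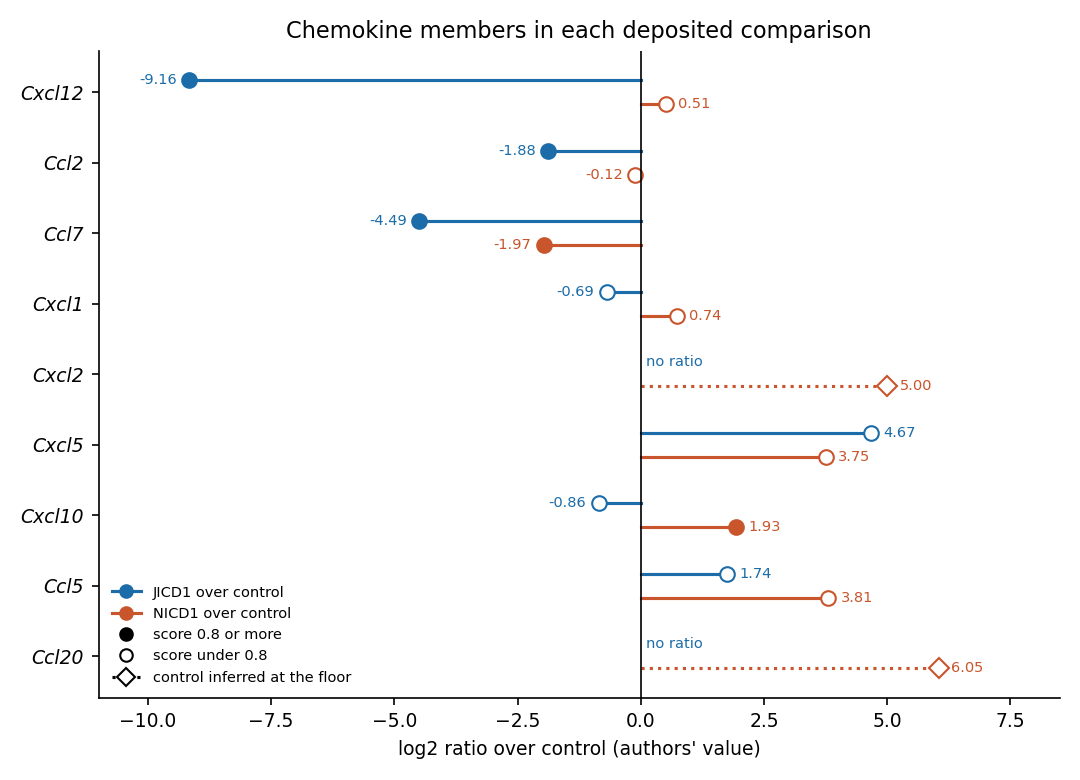
Log2 ratio over control for each member (x axis) in the libraries labelled JICD1 (blue, upper line of each pair) and the NICD1 libraries (orange, lower line), as the authors give it, with no error available. Filled symbols have a score of 0.8 or more, and diamonds with dotted lines mark members whose control was inferred at the floor; Cxcl12 lies at -9.16 in blue and 0.51 in orange, while Cxcl5 lies above 0 in both.

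Cxcl12 had the largest absolute ratio of any member. It encodes the ligand of Cxcr4 and of the scavenging receptor Ackr3, and is made continuously by stromal cells and astrocytes rather than only in inflammation. In the authors' deposited table for JICD1 its log2 ratio was -9.16 with a score of 0.991, a level 573-fold lower than in control. For NICD1 the authors' deposited table gave 0.51 with a score of 0.70, or 1.42-fold higher. The JICD1 score lay above the 0.933 that a gene at the floor would have, so the JICD1 group was not inferred to sit there. That edge rests on 3 genes beyond an absolute log2 of 8, and the size of the fold is accordingly loose.

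Ccl2 and Ccl7 both attract monocytes through the receptor Ccr2, and their genes are neighbours on chromosome 11. Ccl7 was scored lower in both comparisons, with a log2 ratio of -4.49 (score 0.965) for JICD1 and -1.97 (score 0.878) for NICD1 in the authors' deposited tables. These are levels 22.5-fold lower for JICD1 and 3.92-fold lower for NICD1 than in control. Ccl2 had a log2 ratio of -1.88 (score 0.868) for JICD1 in the authors' deposited table, 3.68-fold lower. For NICD1 the authors' deposited table put Ccl2 at -0.12 (score 0.420), near the control level. Of the pair, Ccl7 had the larger absolute ratio in both tables. The receptor gene Ccr2 stood at 0.07 for JICD1 and -1.21 for NICD1 in the authors' deposited tables, with scores of 0.144 and 0.178.

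Cxcl1, Cxcl2 and Cxcl5 belong to the CXC chemokines that call neutrophils through Cxcr2. Cxcl5 had a log2 ratio of 4.67 (score 0.773) for JICD1 and 3.75 (score 0.650) for NICD1 in the authors' deposited tables, 25.4-fold and 13.5-fold higher than control. It was the member with the highest JICD1 ratio, and its scores stayed under 0.8. Cxcl1 stood at -0.69 (score 0.699) for JICD1 and 0.74 (score 0.744) for NICD1 in the authors' deposited tables, that is, 1.62-fold lower and 1.67-fold higher. Cxcl2 had a log2 ratio of 5.003 (score 0.513) for NICD1 in the authors' deposited table, with its control inferred at the floor. Its score differed from the floor edge of 0.513 by less than the tolerance of 0.002. Cxcl1 and Cxcl2, the neighbours with the same NF-kB match printed above, both lay above 0 for NICD1. The ratios of Cxcl1 were under 1 in size, while that of Cxcl2 rests on a control at the floor, so their sizes cannot be compared. Whether the shared match bears on these values was not tested.

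Cxcl10 and Ccl5 are the members best known as interferon-induced, and both attract T cells, Cxcl10 through the receptor Cxcr3. Cxcl10 stood at -0.86 (score 0.458) for JICD1 and 1.93 (score 0.811) for NICD1 in the authors' deposited tables, 1.81-fold lower and 3.81-fold higher than control. Ccl5 stood at 1.74 (score 0.332) for JICD1 and 3.81 (score 0.673) for NICD1 in the authors' deposited tables, 3.35-fold and 14.0-fold higher. Ccl5 was thus above 0 in both comparisons, with scores under 0.8. Ccl20 encodes the ligand of Ccr6, which draws dendritic cells and T helper 17 cells. Its log2 ratio was 6.05 (score 0.643) for NICD1 in the authors' deposited table, the highest of the members there, and its control was inferred at the floor.

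**Figure D2:**
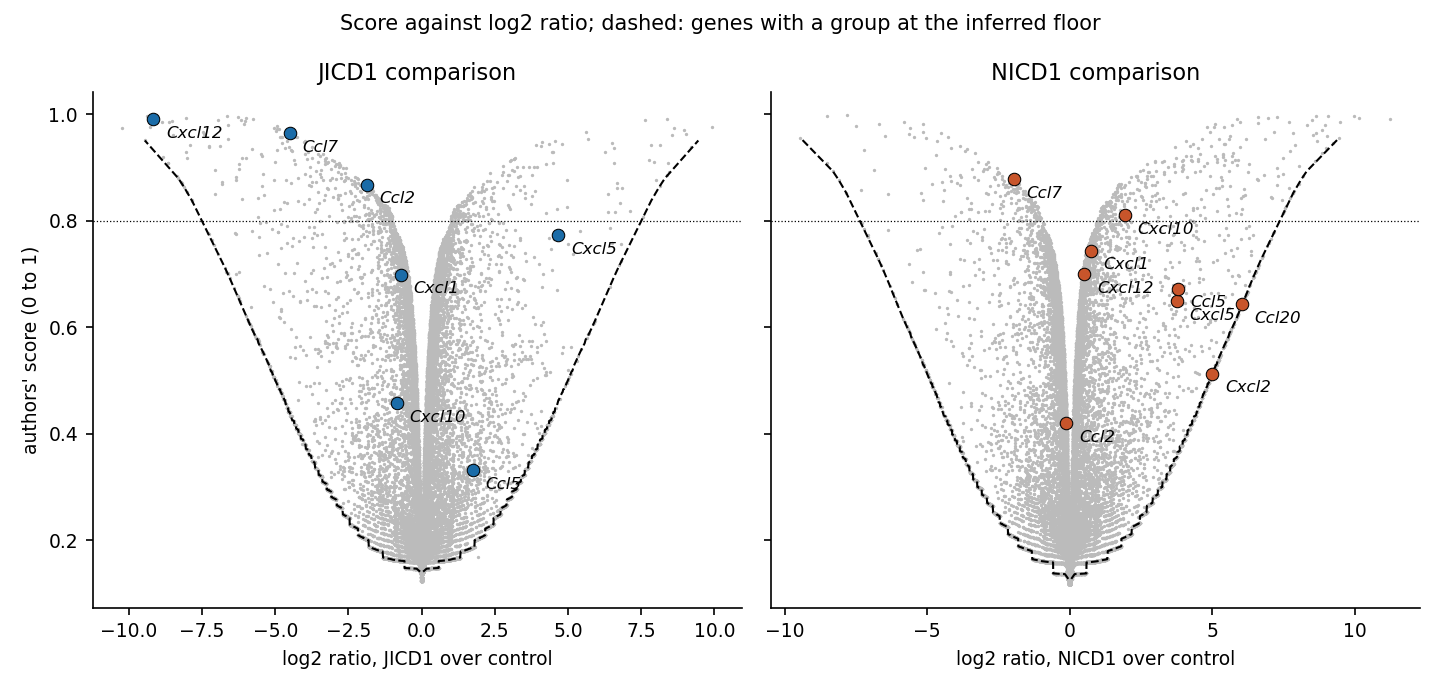
Authors' score (y axis, 0 to 1) against log2 ratio over control (x axis) for all genes (grey) in the JICD1 comparison (left) and the NICD1 comparison (right), with the members labelled. The dashed line is the edge formed by genes with a group at the inferred floor, and the dotted line is a score of 0.8; Cxcl2 and Ccl20 lie on the dashed edge at right, and Ccl2, Ccl7 and Cxcl12 lie near the upper edge at left.

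A score can also be set against the scores of genes of a like ratio. Among the 300 genes nearest in absolute ratio in the authors' deposited table for JICD1, Ccl2 lay at percentile 99.7 of the score, Ccl7 at 98.3 and Cxcl12 at 97.7. The other members there lay between 60.7, for Ccl5, and 77.7, for Cxcl5. In the authors' deposited table for NICD1 Ccl7 lay at percentile 100, above all 300, and Ccl2 at 99.3. Cxcl10 followed at 94.3, and Cxcl1, Ccl5, Cxcl5 and Cxcl12 lay between 86.7 and 88.3. Cxcl2 and Ccl20 lay at 36 and 33.3 in the authors' deposited table for NICD1. Ccl2 and Ccl7 therefore had scores near the top for their ratio in both tables. This does not measure the size of a change, as Ccl2 stood at only -0.12 for NICD1 in the authors' deposited table. The control of Cxcl2 and Ccl20 was inferred at the floor because their scores lay on the lowest edge, so their low percentiles follow from that rule.

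Reads of near-identical genes can be assigned to the wrong copy, and how such reads were counted is not stated in the labels. Of the 50-base windows in the GENCODE vM21 transcripts of each member, 5.84% for Cxcl2 also occurred in Cxcl3, and 0.693% for Cxcl5 occurred in transcripts of unrelated genes. The other 7 members shared 0 windows with another gene. The value of Cxcl2 is accordingly the least certain in identity.

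The constructs can be set against each other by subtracting the log2 ratios, since both tables use the same control. For this JICD1 over NICD1 value there is no score and no test. Of the 7 members in both tables, 6 had a log2 difference of -1 or less, against 13.6% of 18182 genes, and 0 one of 1 or more, against 10.6%. The median of the members was -2.06, where that of all genes was 0.04. From the authors' deposited tables the difference was -9.67 for Cxcl12, -2.79 for Cxcl10, -2.52 for Ccl7, -2.06 for Ccl5, -1.76 for Ccl2 and -1.43 for Cxcl1. The difference for Cxcl5 from the authors' deposited tables was 0.92, in the other direction. Cxcl12, Cxcl10 and Cxcl1 also differed in sign relative to control, being below 0 in the libraries labelled JICD1 and above 0 in the NICD1 libraries. Cxcl2 and Ccl20 have no difference, as they had a ratio only for NICD1.

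**Figure D3:**
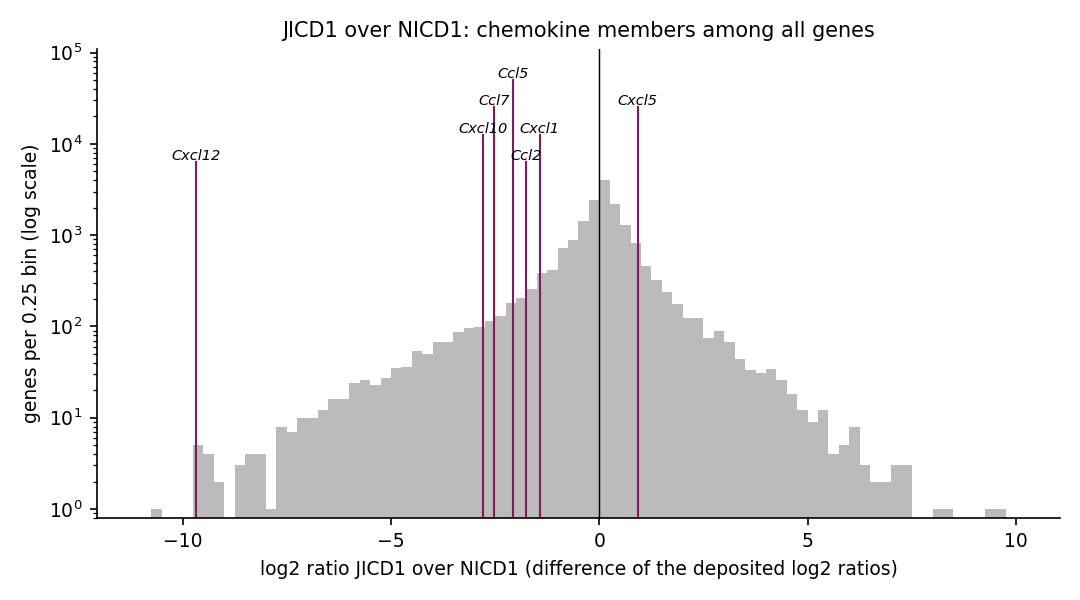
Number of genes per 0.25-wide bin (y axis, log scale) of the log2 ratio JICD1 over NICD1 (x axis, the difference of the deposited log2 ratios), with vertical lines at the members. All labelled members but Cxcl5 lie left of 0, and Cxcl12 lies at -9.67, in the far left tail.

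Among chemokines outside the members, Cxcl3, another neutrophil attractant from the gene cluster of Cxcl5, was scored higher in both comparisons, at 6.58 (score 0.910) for JICD1 and 5.56 (score 0.828) for NICD1 in the authors' deposited tables. Of 10 other CXC chemokines looked for, 6 had a JICD1 ratio, with a median of 0.86, and 6 an NICD1 ratio, with a median of 1.69. Cxcl16 stood at -4.03 (score 0.770) for JICD1 and 0.50 for NICD1 in the authors' deposited tables. Ppbp, a platelet chemokine, stood at -2.78 for JICD1 and 2.12 (score 0.70) for NICD1 in the authors' deposited tables. Cxcl11, which shares the receptor of Cxcl10, stood at 1.64 for JICD1 and 3.02 for NICD1 in the authors' deposited tables with its control inferred at the floor. Cxcl9, the third ligand of that receptor, stood at 0.09 (score 0.144) for JICD1 and 0.00 (score 0.117) for NICD1 in the authors' deposited tables. The lowest scores of any gene there were 0.123 for JICD1 and 0.117 for NICD1, and whether Cxcl9 had more than a few reads is unknown. Pf4 (2.89 for JICD1) and Cxcl15 (1.27 for NICD1) had a ratio in 1 of the authors' deposited tables each, with the control inferred at the floor.

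The other CC, CX3C and XC chemokines lay mostly below 0 for JICD1 and mostly above 0 for NICD1. Of 19 looked for, 10 had a JICD1 ratio, 8 of them below 0 and 6 at -1 or less, with a median of -1.14. Over all genes the JICD1 shares were 45.5% and 14.4%. For NICD1 12 of the 19 had a ratio, 8 of them above 0 and 6 at 1 or more, with a median of 0.65. Over all genes the NICD1 shares were 48.5% and 16.6%. Ccl9, which attracts myeloid cells in mice, stood at -1.53 (score 0.682) for JICD1 and was scored higher for NICD1 at 1.59 (score 0.813) in the authors' deposited tables. Cx3cl1, the membrane-bound chemokine fractalkine, stood at -1.01 (score 0.780) for JICD1 and 0.25 for NICD1 in the authors' deposited tables. Ccl8 stood at -1.29 and Ccl28 at -2.38 for JICD1 in the authors' deposited table, while Ccl11 at -2.09 and Ccl22 at -1.27 had the JICD1 group inferred at the floor. For NICD1 the authors' deposited table gave Ccl6 1.62, Ccl17 1.38 and Ccl27a 1.04, and Ccl1 (1.34) and Ccl24 (1.90) had a control inferred at the floor. Ccl27a was also above 0 for JICD1, at 1.75 (score 0.665) in the authors' deposited table.

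The members and their relatives lie in gene clusters, so values can also be read by position. On chromosome 11 the run Ccl2, Ccl7, Ccl11, Ccl12, Ccl8 and Ccl1 had 4 JICD1 ratios, all at -1 or less in the authors' deposited table. Over all genes 14.4% lay at -1 or less, and Ccl11 had the JICD1 group inferred at the floor. For NICD1 the same run had 5 ratios in the authors' deposited table, 4 of them below 0 and 1, Ccl1, above. Of these Ccl2 (-0.12), Ccl11 (-0.06) and Ccl8 (-0.26) lay near 0 and Ccl7 stood at -1.97. Ccl1 had its control inferred at the floor. The next run, Ccl5, Ccl9, Ccl6, Ccl3 and Ccl4, had 3 NICD1 ratios, all at 1 or more in the authors' deposited table. For JICD1 the authors' deposited table gave Ccl5 1.74, Ccl9 -1.53 and Ccl6 -0.83. On chromosome 5 the run Cxcl5, Ppbp, Pf4, Cxcl3, Cxcl15, Cxcl1 and Cxcl2 had 6 NICD1 ratios, all above 0 and 5 at 1 or more in the authors' deposited table. Over all genes 48.5% and 16.6% did so, and Cxcl15 and Cxcl2 had a control inferred at the floor. The 5 JICD1 ratios of this run in the authors' deposited table were mixed, with 3 above 0 (Cxcl5, Pf4 and Cxcl3) and 2 below (Ppbp and Cxcl1). For Pf4 the control was inferred at the floor.

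**Figure D4:**
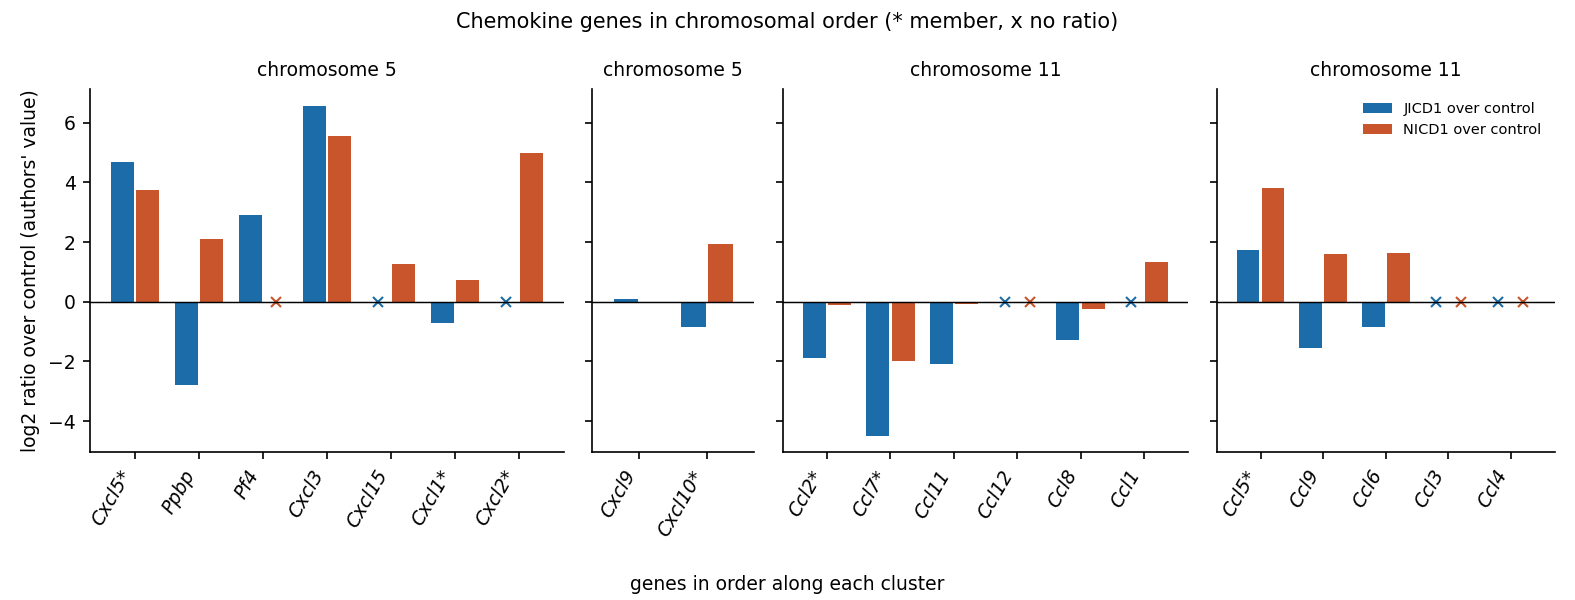
Log2 ratio over control (y axis) for chemokine genes in their order along 2 clusters of chromosome 5 and 2 of chromosome 11 (x axis, order only), with the libraries labelled JICD1 in blue and the NICD1 libraries in orange. Stars mark members and crosses mark genes with no ratio; the bars drawn from Ccl2 to Ccl8 point down for both constructs, and those of Cxcl5 and Cxcl3 point up for both.

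Receptor genes were looked for as well. Of 17 chemokine receptors looked for, 12 had a JICD1 ratio and 12 an NICD1 ratio, and 0 were scored in either table. Over all genes 2.81% and 2.61% were scored, so 0 of 12 lies near those shares. The medians of the receptors were -0.10 for JICD1 and 0.11 for NICD1. In the authors' deposited table for JICD1, Cxcr6 stood at -4.80 (score 0.631), Cxcr4 at -2.13 (score 0.281) and Cxcr5 at -2.00 (score 0.329). Ccr7 at -1.39 had the JICD1 group, and Ccr9 at 1.38 and Cxcr3 at 1.56 the control, inferred at the floor in the authors' deposited table. For NICD1 these receptors stood between -0.76 and 0.45 in the authors' deposited table where they had a ratio. Ackr3, the scavenging receptor of Cxcl12, was scored lower for JICD1 at -1.84 (score 0.841) and stood at -1.18 (score 0.799) for NICD1 in the authors' deposited tables. Cxcl12 and its scavenger thus both lay below 0 in the libraries labelled JICD1, while in the NICD1 libraries Ackr3 lay below 0 and Cxcl12 above. Ackr4 stood at -1.25 for JICD1, with the JICD1 group inferred at the floor, and 2.56 for NICD1 in the authors' deposited tables. Ccrl2 stood at -1.30 in both of the authors' deposited tables with both transfected groups inferred at the floor.

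NF-kB subunits and regulators had ratios from -1.89 to 0.64 for JICD1 and from -0.45 to 0.87 for NICD1. Of these 19 genes, 14 lay below 0 for JICD1, against 45.5% of all genes, with a median of -0.50. For NICD1 13 lay above 0, against 48.5% of all genes, with a median of 0.30. Map3k14, the kinase of the non-canonical NF-kB pathway, was the single scored one, at -1.89 (score 0.842) for JICD1 and -0.09 for NICD1 in the authors' deposited tables. Among upstream cytokine ligands and receptors, 11 of 14 had a JICD1 ratio, with a median of 0.11, and 13 an NICD1 ratio, with a median of 0.16. Il17ra, a receptor subunit for interleukin 17, stood at -0.26 (score 0.159) for JICD1 and was scored higher for NICD1 at 6.86 (score 0.954) in the authors' deposited tables. Il1rap, the shared partner of interleukin 1 family receptors, stood at 0.08 for JICD1 and was scored higher for NICD1 at 1.48 (score 0.827) in the authors' deposited tables. Tnfrsf1b, the second receptor of tumour necrosis factor, was scored lower in both, at -1.68 for JICD1 and -1.14 for NICD1 in the authors' deposited tables.

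Interferon pathway genes did not follow one direction. Of 14 interferon receptors, STATs and IRFs, 11 lay below 0 for JICD1, against 45.5% of all genes, with a median of -0.37. For NICD1 7 lay below 0, with a median of 0.02. Irf1, a transcription factor that acts at interferon-induced promoters, was scored lower for JICD1 at -1.43 (score 0.828) and stood at 0.22 for NICD1 in the authors' deposited tables. Of 16 interferon-induced genes, 9 lay above 0 and 7 below for JICD1, with a median of 0.48. Over all genes 45.5% lay below 0 for JICD1, so 7 of 16 lies near that share. For NICD1 14 had a ratio, 11 of them above 0, against 48.5% of all genes, with a median of 0.62. Bst2, the tethering factor of enveloped viruses, was the single scored one, at 1.33 (score 0.827) for JICD1 and 0.80 (score 0.756) for NICD1 in the authors' deposited tables. Cxcl10, with a score of 0.458, was below 0 for JICD1, where the list lay on both sides of 0. The list's JICD1 median rests partly on genes at the floor, so its sign is not set against Cxcl10. In the authors' deposited table Ifih1 (3.44), Rsad2 (1.15) and Ifi44 (1.03) had their control inferred there, and Mx2 (-2.31) the JICD1 group. Without these genes the middle of the list lay between Ddx58 (-0.39) and Usp18 (0.25) in the authors' deposited table.

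**Figure D5:**
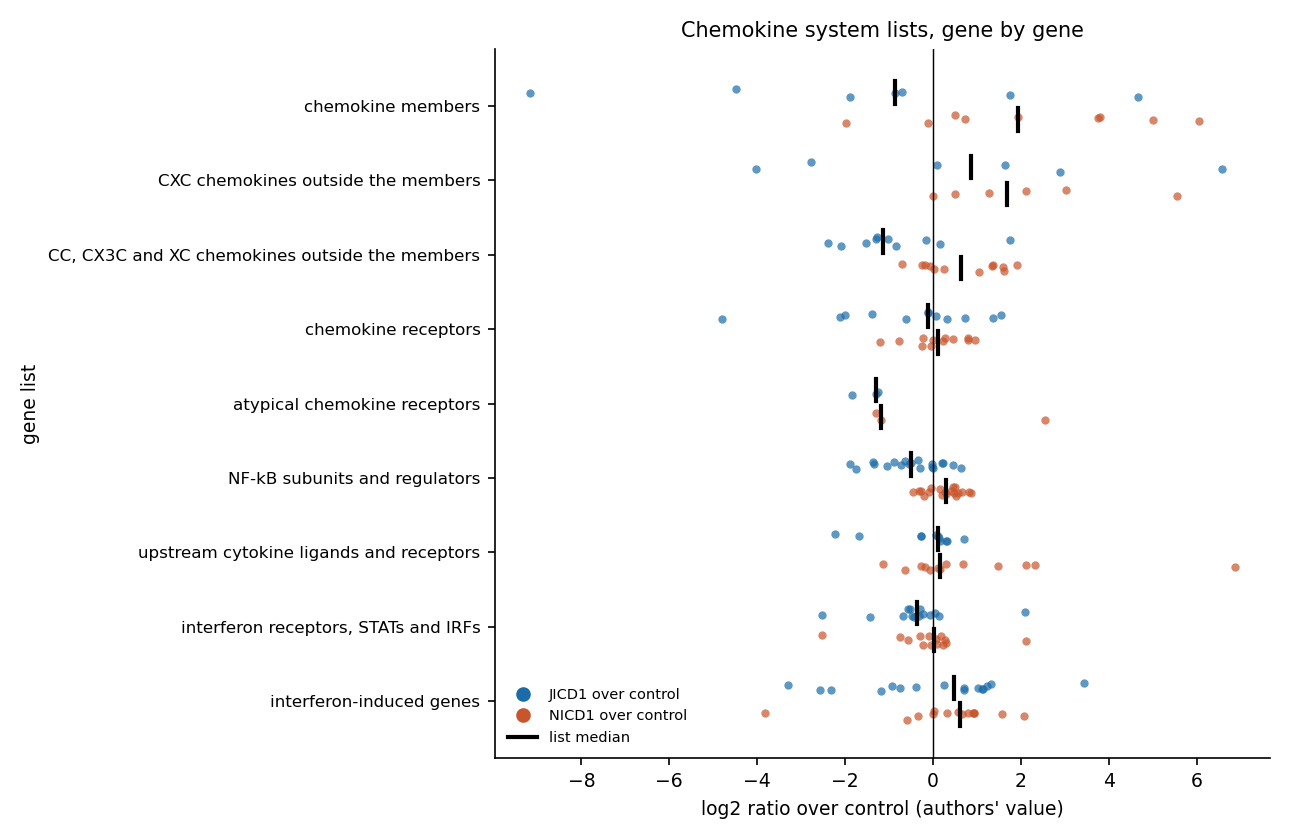
Log2 ratio over control (x axis) of each gene with a ratio in the chemokine members and 8 related lists (y axis), for the libraries labelled JICD1 (blue, upper row of each pair) and the NICD1 libraries (orange, lower row), with black bars at list medians. The members' medians lie at -0.86 in blue and 1.93 in orange, while the receptor and interferon lists spread to both sides of 0.

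Markers of fibroblasts and pericytes and of microglia and macrophages differed between the comparisons as well. Fibroblast and pericyte markers, cells that also make Cxcl12 and Ccl2, had 7 of 8 JICD1 ratios below 0, 5 of them scored lower, with a median of -2.41. For NICD1 they had 5 of 9 above 0, with 2 scored higher and 1 lower, and a median of 0.08. Over all genes, 45.5% lay below 0 and 1.74% were scored lower for JICD1. For NICD1 48.5% of all genes lay above 0, 1.64% were scored higher and 0.97% lower. Microglia and macrophage markers had 7 of 9 JICD1 ratios below 0, 1 of them scored lower, with a median of -0.94, and 8 of 9 NICD1 ratios above 0, 0 of them scored, with a median of 0.72. The scored one was Tmem119, at -8.48 (score 0.962) for JICD1 and -1.36 (score 0.781) for NICD1 in the authors' deposited tables. Fbln1, from the fibroblast list, lay near it, at -8.02 for JICD1 and -1.50 for NICD1 as the authors give them. Apart from Tmem119, JICD1 scores in the microglia list ran only from 0.144, for Itgam, to 0.399, for Aif1. Of the 12 microglia and macrophage markers looked for, Adgre1, C1qa and Tyrobp lacked a ratio in either table. Whether the control held microglia was not tested. For the fibroblast marker Dcn and the microglial marker Aif1, at -8.67 and -4.16 for JICD1 in the authors' deposited table, the JICD1 group was inferred at the floor. Endothelial markers had 3 of 6 below 0 for JICD1 and 3 of 6 for NICD1, with 0 scored. Astrocyte markers had 6 of 9 below 0 for JICD1, 1 of them scored lower, with a median of -0.84, and 7 of 9 for NICD1, 2 of them scored lower, with a median of -0.72. These were Clu, at -3.88 for JICD1 and -2.30 for NICD1, and Sox9, at -1.64 for NICD1, in the authors' deposited tables. The tables give no summed level of any marker list, and the part of other cell types in the chemokine values was not tested.

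For each member scored in at least 1 table, the 2 genes with the nearest pair of ratios were sought among 837 scored genes, by the distance over the JICD1 and NICD1 log2 ratios. These 2 values share a control, so likeness is a description. Nearest to Ccl2 were Map3k14 (0.026) and the neurotrophic factor gene Gdnf (0.029). Nearest to Ccl7 were Mgat3 (0.449) and Stab1 (0.468). Nearest to Cxcl10 were Kdm5b (0.145) and Thbs1 (0.219); Thbs1 encodes the matrix protein thrombospondin 1. Cxcl12 had no close neighbour beyond Plac8 (0.422), the next being St8sia2 at 1.52.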

How the data were processed

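RNA-seq of 3 libraries in each of 3 groups was analysed through the 2 tables of the authors' own comparisons. Each deposited table holds a log2 ratio and a score between 0 and 1 per gene, per the file headers, and no source used here says how the score was made. Bowtie2, BWA and mm9 are named, without role or version, in the submitters' processing notes, whereas gene descriptions carry GRCm38 positions (11622 for JICD1 and 11814 for NICD1). A test on counts per library had been planned and could not be made, since the tables hold 1 value per comparison, so depth and precision are unknown. The tables held 0 unused numeric columns.

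Members were matched by symbol (5) or by NCBI Gene ID (4), using NCBI annotation of GRCm38.p6. The members and lists were chosen with earlier results of these data known. Named genes were the members, Jag1, Notch1, Cdkn2a, genes of the pathway lists (not the cell type markers) past an absolute log2 ratio of 1 and a score of 0.8, chemokine and receptor genes past an absolute log2 ratio of 1, and the nearest genes. A few others are given for the receptor or floor they bear on, and 1 gene that the rule names is not reported here.

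The floor was inferred from 694 genes whose negative ratio was identical for JICD1 and NICD1 (tolerance 1e-06), against 1 with an identical positive ratio. A gene within 0.002 of their score curve (0.01 above a log2 of 6), at an absolute log2 ratio of 1 or more, was assigned a group at the floor. Of 965 genes with a ratio of 1 or more only in the NICD1 table, 92.5% lay on it. The inference, the score percentile and the motif search were tested on simulated data. There the score was built from the ranks of the absolute ratio and the absolute difference, with a fixed floor. How the authors' score was made is unknown, so this tests the code and not the floor calls in these data. Alternatives were other score and size limits, subtraction of the table median, the tables' symbols alone and omission of genes at the floor. Python 3.11.15, pandas 2.3.3, numpy 2.4.6 and matplotlib 3.10.9 were used.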

Additional observations from a re-analysis of the deposited data

How the results depend on the processing

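Subtracting each table's median (0.05 for JICD1, -0.02 for NICD1) turned no member's direction and left the counts and medians as reported. With the tables' own symbols alone, 4 members dropped out and the numbers changed through their absence: for JICD1 the median was -0.69, with 1 above 0, 2 below, 1 at 1 or more, 1 at -1 or less and 1 scored lower. For NICD1 with symbols alone the median was 3.75, with 4 above 0, 1 below, 3 at 1 or more and 0 scored higher, and for JICD1 over NICD1 the median was -1.43, with 2 members at -1 or less. At a score of 0.7, 1 member was scored higher for JICD1 and 3 for NICD1; at 0.9, 2 were scored lower for JICD1, and 0 were scored higher and 0 lower for NICD1. At an absolute log2 of 2, 1 member passed upward and 2 downward for JICD1, 4 upward and 0 downward for NICD1, and 4 downward for JICD1 over NICD1. Without Cxcl2 and Ccl20, whose control was inferred at the floor, the NICD1 median was 0.74 and 3 members reached 1 or more. A shift of a median was counted as such above 0.1 on the log2 scale. No paired analysis was possible because the tables hold no value per library; for the same reason leaving out a replicate, a replicate block and other count normalizations were not run.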
